A study of Mus musculus with 4 samples.

Results

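Complex I of the mitochondrial respiratory chain was followed through the genes whose symbols begin with Nduf, the nuclear genes of its subunits and assembly factors. The array carried 41 probes for 38 such symbols, of 13410 symbols in all. To be tested, a gene needed values on 3 or more of the 4 arrays. This held for 29 of the 38 genes, against 8384 genes in the whole table. Of the 29 genes, 6 encode core subunits, 17 accessory subunits and 5 assembly factors, and 1, Ndufs5-ps, is annotated by RefSeq as a transcribed pseudogene. Of the 9 genes that were not tested, Ndufa10, Ndufb4, Ndufb5, Ndufb10 and Ndufs4 had no value on any array, and Ndufa11, Ndufaf1, Ndufaf5 and Ndufv3 had 1 or 2.

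The samples were lungs of 4 bleomycin-treated mice of the inbred strain A/J, numbered 1 to 4. Bleomycin breaks DNA and serves as a standard agent of experimental lung injury; its dose, route and time are not stated in the labels. Amplified RNA of each mouse was set on a 2-colour array against 1 shared pool, made of amplified lung RNA of control A/J mice. Each value is therefore a log ratio between 1 treated mouse and the pool, and the comparison asks how treated lungs differ from control lungs. With 1 pool there is 1 control sample: p-values reflect how the 4 treated mice vary, and the variation among control mice does not enter. In whole lungs, fewer cells of a type and less RNA per cell cannot be told apart.

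Which RNA forms the numerator is stated neither in the labels nor in the table. The titles name the treated mouse first, and if it is the numerator, values below 0 are lower in treated lungs. Because this is not settled, genes are given by their side of 0, and with the pool as numerator every sign would turn, while sizes and p-values would stay. The logarithm was read as base 2, which is not stated either. Each array was centred on its median, so that 0 is the median spot of the array.

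Complex I takes electrons from NADH, passes them along a chain of iron-sulfur clusters to ubiquinone and pumps protons across the inner mitochondrial membrane. It has an arm in the matrix, where the core subunits bind NADH and carry the electrons, and an arm in the membrane, which pumps. The core subunits of the membrane arm are encoded by mitochondrial DNA. Accessory subunits surround the core and are needed for its assembly or stability, and assembly factors help to build the complex but are not part of it. In the lung, complex I supplies energy to epithelial and endothelial cells and is a source of reactive oxygen species.

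A large share of the complex I genes tested differed from the pool, nearly all of them below 0. Of the 29 genes, 11 passed below 0 (limma, Benjamini-Hochberg adjusted p at most 0.05 over all genes), which is 37.9% beside 4.81% of all genes tested. Above 0, 1 of 29 passed, beside 7.69% of all genes. At an unadjusted limma p under 0.05, 16 of the 29 lay below 0, beside 13.8% of all genes, and 2 above, beside 18% of all genes. The counts of classes and gene lists given further on can be read against these 4 shares. The 11 genes were Ndufs5-ps, Ndufa5, Ndufc1, Ndufa7, Ndufb2, Ndufa3, Ndufa13, Ndufb8, Ndufs8, Ndufa9 and Ndufb7, and the gene above 0 was Ndufaf7. Every value was below 0 in 17 genes, beside 22.3% of all genes, and above 0 in 2, beside 24.3%; the other 10 had values on both sides. The median of the 29 means was -0.44, beside 0.00 over all genes. The count below 0 fell when any 1 array was dropped, to 0, 8, 1 and 5 members on leaving out mice 1 to 4 in turn. Over all genes the share past the test below 0 fell as well, from 4.81% to 1.09%, 1.93%, 1.03% and 1.61% in the same order. At an unadjusted limma p under 0.05, 16, 15, 16 and 16 members still lay below 0. With mice 1 and 2 and mice 3 and 4 treated as blocks, since the arrays of each pair resembled each other, 2 members remained, Ndufs8 and Ndufb2. In that setting 1.38% of all genes passed below 0.

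**Figure D1:**
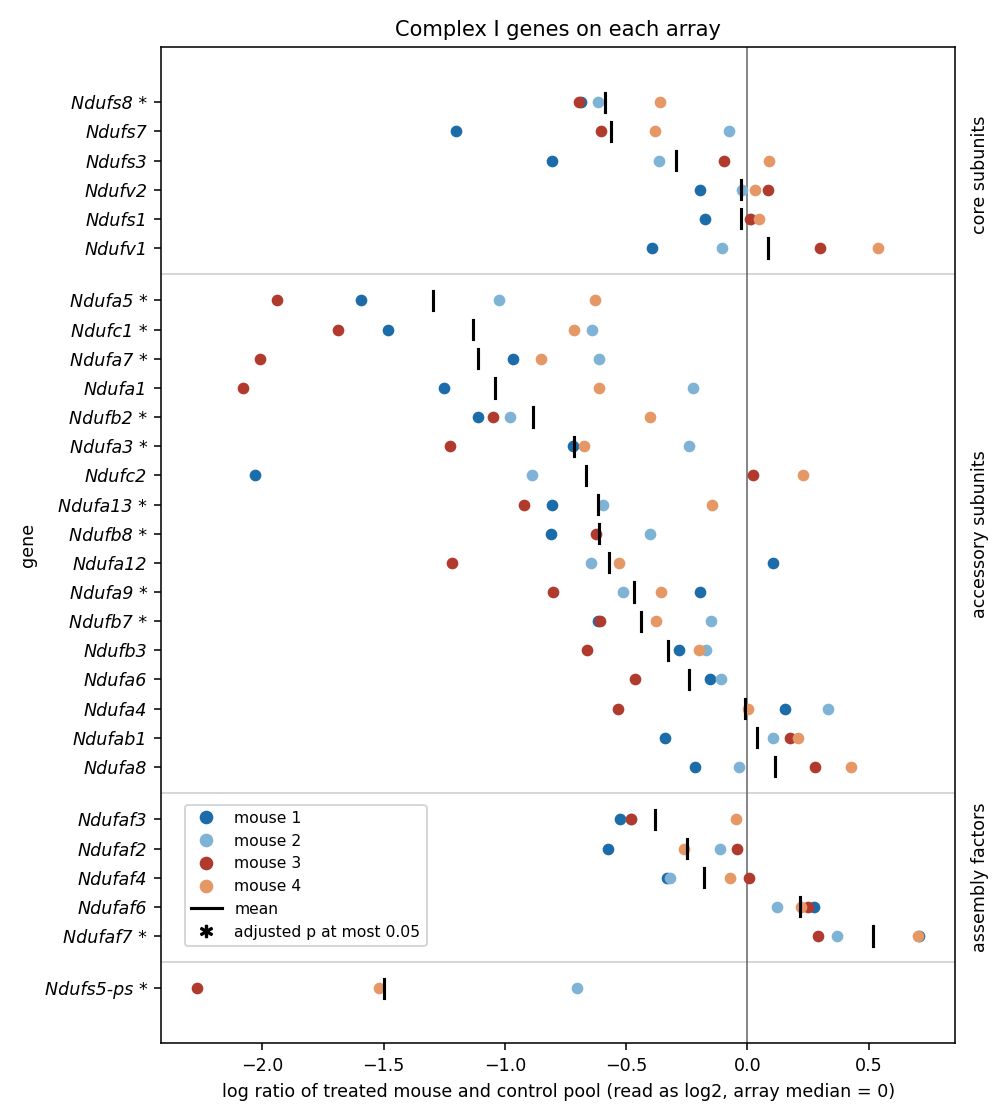
Log ratio of treated mouse and control pool for the 29 complex I genes tested (x axis, read as log2, each array centred on its median), by class, with 1 point per mouse and a bar at the mean; an asterisk marks a limma adjusted p at most 0.05. Most accessory subunit genes lie left of 0 on all arrays, down to -2.08, while Ndufaf7 and Ndufaf6 lie right of 0 in all 4 mice.

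Among the core subunits, 1 of 6 genes passed below 0 and 0 above, and 2 below and 0 above had an unadjusted limma p under 0.05. Their median was -0.16, and it was -0.05 without mouse 1 and -0.24 without mouse 4. Ndufs8, an iron-sulfur subunit close to the ubiquinone site, had log ratios of -0.68, -0.62, -0.69 and -0.36 in mice 1 to 4. All 4 values were well below 0 and close together, with a mean of -0.59 ± 0.16 (SD, n = 4; limma adjusted p = 0.0152), which is a 1.50-fold difference under base 2. It had the smallest adjusted p of the complex I genes. It was lost without mouse 1 or mouse 3, at limma adjusted p up to 0.0560.

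The other core subunit genes did not pass. Ndufs7, which holds the last iron-sulfur cluster before ubiquinone, had log ratios of -1.20, -0.07, -0.60 and -0.38 in mice 1 to 4, all below 0 but far apart (mean -0.56 ± 0.48, SD, n = 4; limma adjusted p = 0.0970). Ndufs3, a subunit of the same region, had -0.81, -0.36, -0.10 and 0.09 in mice 1 to 4, so that mouse 1 was lowest and mouse 4 lay above 0. The 3 subunits at the NADH end of the matrix arm were near 0. Ndufv1, which binds NADH and the flavin cofactor, had -0.39, -0.11, 0.30 and 0.54 in mice 1 to 4, with mice 1 and 2 below 0 and mice 3 and 4 above it. Its partner Ndufv2 ranged from -0.20 to 0.08 and Ndufs1, the largest subunit, from -0.17 to 0.05, with means of -0.03 and -0.02. Ndufs8, Ndufs7 and Ndufs3 thus lay lower than Ndufv2, Ndufs1 and Ndufv1 in their means, a split made after the values were seen and not tested.

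Accessory subunits held most of the genes past the test. Of 17, 9 passed below 0 and 0 above, and 12 below and 0 above had an unadjusted limma p under 0.05. Their median was -0.61, with means from -1.30 to 0.11. In the matrix arm 3 of 5 passed and in the membrane arm 6 of 10, with medians of -0.57 and -0.64. Ndufab1, which belongs to both arms, and Ndufa4, now counted with cytochrome c oxidase, are in neither count.

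In the matrix arm, Ndufa5 was lowest, at -1.59, -1.03, -1.94 and -0.63 in mice 1 to 4. All 4 values were far below 0, with the lowest in mouse 3 and the highest in mouse 4. Its mean was -1.30 ± 0.58 (SD, n = 4; limma adjusted p = 0.0232), a 2.46-fold difference under base 2, and it ranked 39th from the lowest of 8384 genes. Ndufa7 had -0.97, -0.61, -2.01 and -0.85 in mice 1 to 4 (mean -1.11 ± 0.62, SD, n = 4; limma adjusted p = 0.0370). Mouse 3 stood lowest there too, and the other mice lay closer together. Ndufa9, which binds NADPH near the ubiquinone site, had -0.20, -0.51, -0.80 and -0.36 in mice 1 to 4 (mean -0.47 ± 0.26, SD, n = 4; limma adjusted p = 0.0482), just inside the threshold and lost whichever mouse was left out. Ndufa12 and Ndufa6 did not pass. Ndufa12 had 0.11 in mouse 1 and -0.65, -1.22 and -0.53 in mice 2 to 4, and Ndufa6, which carries the acyl carrier protein, had a mean of -0.24 over mice 1 to 3.

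In the membrane arm, Ndufc1 had log ratios of -1.48, -0.64, -1.69 and -0.71 in mice 1 to 4. Mice 1 and 3 were clearly lower than mice 2 and 4. The mean was -1.13 ± 0.53 (SD, n = 4; limma adjusted p = 0.0254). Ndufb2 had -1.11, -0.98, -1.05 and -0.40 in mice 1 to 4 (mean -0.88 ± 0.33, SD, n = 4; limma adjusted p = 0.0174), with 3 mice close together and mouse 4 nearest to 0. Ndufa13, also known as GRIM-19 for a role in cell death, had -0.81, -0.59, -0.92 and -0.15 (mean -0.62 ± 0.34, SD, n = 4; limma adjusted p = 0.0424). There too mouse 4 was nearest to 0. Ndufb8 had -0.81, -0.40 and -0.63 in mice 1 to 3 and no value in mouse 4 (mean -0.61 ± 0.20, SD, n = 3; limma adjusted p = 0.0333). Ndufb7, which faces the intermembrane space, had -0.62, -0.15, -0.61 and -0.38 in mice 1 to 4 (mean -0.44 ± 0.22, SD, n = 4; limma adjusted p = 0.0437). The values of mice 1 and 3 were again the lowest.

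Ndufa3 passed as the mean of 2 probes that disagreed. The averaged values were -0.72, -0.24, -1.23 and -0.67 in mice 1 to 4 (mean -0.72 ± 0.40, SD, n = 4; limma adjusted p = 0.0416). One probe had -1.26, -0.27, -2.60 and -1.40, and the other -0.18, -0.22, 0.15 and 0.05, so that the second was close to 0 in every mouse. With 1 probe per gene, which kept the first, Ndufa3 no longer passed (limma adjusted p = 0.0534).

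The remaining membrane arm genes did not pass. Ndufa1, which is encoded on the X chromosome and needed for assembly, had -1.25, -0.22, -2.08 and -0.61 in mice 1 to 4 (mean -1.04 ± 0.81, SD, n = 4; limma adjusted p = 0.0743). It lay below 0 in every mouse, and lower on average than Ndufb2, which passed, but its spread was wider, and it passed when arrays were scaled to the same spread (limma adjusted p = 0.0488). Ndufc2 had -2.03 and -0.89 in mice 1 and 2 but 0.02 and 0.23 in mice 3 and 4 (mean -0.67 ± 1.03, SD, n = 4; limma adjusted p = 0.278). Its SD was the largest of the 29 genes. Ndufb3 ranged from -0.66 to -0.17, and Ndufa8, a protein of the intermembrane space, from -0.21 to 0.43.

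Ndufab1 and Ndufa4 had means of 0.04 and -0.01 and values on both sides of 0. Ndufab1 is the mitochondrial acyl carrier protein, which also serves fatty acid synthesis, and its values were -0.34, 0.11, 0.17 and 0.21 in mice 1 to 4. Ndufa4 had 0.15, 0.33, -0.53 and 0.00 in the same order. Neither passed the test (limma adjusted p = 0.843 and 0.967).

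Assembly factors lay on both sides of 0. Of 5, 1 passed above and 0 below, with 2 above and 1 below at an unadjusted limma p under 0.05, and the median was -0.18. Ndufaf7, a mitochondrial methyltransferase, had log ratios of 0.71, 0.37, 0.29 and 0.71 in mice 1 to 4. All 4 were above 0, and mice 1 and 4 had nearly the same value (mean 0.52 ± 0.22, SD, n = 4; limma adjusted p = 0.0302). It was lost whichever mouse was left out, at limma adjusted p up to 0.0964. Ndufaf6, which acts early in assembly, had 0.27, 0.12, 0.25 and 0.22 (mean 0.22 ± 0.07, SD, n = 4; limma adjusted p = 0.0818), a small and even difference that did not pass.

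The other assembly factors had means below 0 and did not pass. Ndufaf3 and Ndufaf4, which work together on the part of the matrix arm that binds ubiquinone, had means of -0.38 and -0.18. Ndufaf3 had -0.53, -0.48, -0.48 and -0.05 in mice 1 to 4 (limma adjusted p = 0.0599), so that mouse 4 stood apart near 0. Ndufaf4 had -0.33 and -0.32 in mice 1 and 2 and 0.01 and -0.07 in mice 3 and 4. Ndufaf2, a relative of Ndufa12 that holds its place during assembly, had a mean of -0.25, with values from -0.57 to -0.04.

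Ndufs5-ps had the lowest mean of all 29 genes. It had no value in mouse 1 and -0.70, -2.27 and -1.52 in mice 2 to 4 (mean -1.50 ± 0.78, SD, n = 3; limma adjusted p = 0.0434). The 3 values were below 0 and far apart. The pseudogene resembles Ndufs5, an accessory subunit gene of the membrane arm with no probe under its own symbol, and the probe may read transcripts of both. With Ndufs5-ps counted as an accessory subunit the median of that class was -0.61, as without it.

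**Figure D2:**
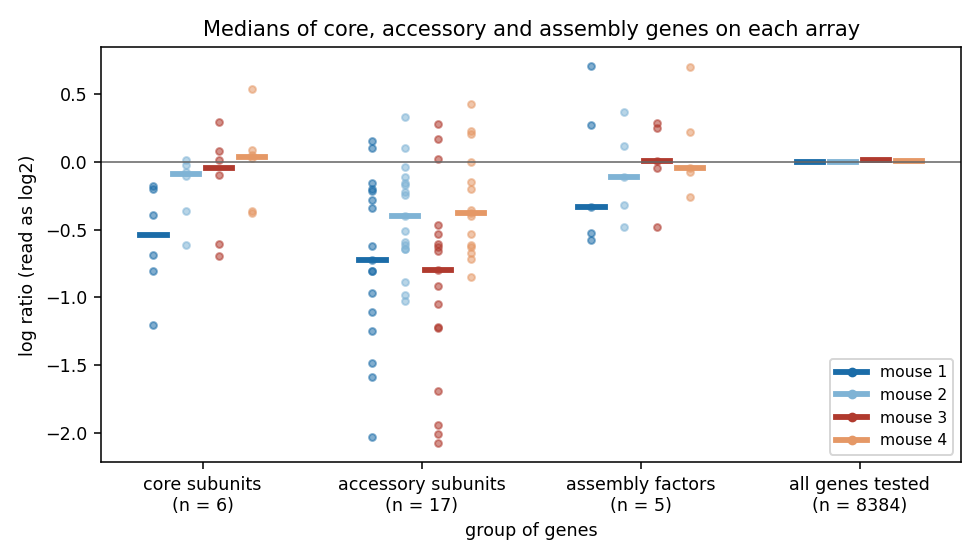
Log ratio (y axis, read as log2) of the core subunits (n = 6), accessory subunits (n = 17) and assembly factors (n = 5) on each array, with 1 point per gene and a bar at the median; for all 8384 genes tested only the medians are drawn. The accessory medians lie between -0.80 and -0.38 in all 4 mice, while the core median is -0.54 in mouse 1 and between -0.09 and 0.04 in the others.

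The accessory subunits had a median below that of the core subunits and of the assembly factors in each mouse. The accessory medians were -0.72, -0.40, -0.80 and -0.38 in mice 1 to 4. Core medians were -0.54, -0.09, -0.04 and 0.04, with mouse 1 the lowest. Assembly factor medians were -0.33, -0.11, 0.01 and -0.05, against medians between 0.00 and 0.01 for all genes. Of the accessory genes with a value, 15 of 17, 15 of 17, 14 of 17 and 11 of 15 were below 0 in mice 1 to 4. For core genes this was 6, 5, 3 and 2 of 6. The classes hold few genes, and the difference between them was not tested.

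Most complex I genes that passed below 0 shared a split of the mice, which was noticed in the data. In 8 of the 9 with 4 values, all but Ndufa9, both mice 1 and 3 were lower than both mice 2 and 4. This held for 12 of the 26 complex I genes with 4 values, for 11.8% of all 6057 such genes, and for 94 of the 360 that passed below 0 with 4 values. Mouse 3 had the lowest value in 7 of the 9 genes and mouse 1 in 2. The split of mice 1 and 3 from mice 2 and 4 does not follow the resemblance between arrays, which paired mice 1 with 2 and 3 with 4. A split along those pairs, with both mice 1 and 2 below both mice 3 and 4, was seen in 7 of 26 complex I genes, among them Ndufc2, Ndufs3, Ndufv1 and Ndufa8, beside 31.9% of all genes. That share is near the background and is no result about complex I. The reverse split was seen in 1, Ndufa4, beside 22.5% of all genes.

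**Figure D3:**
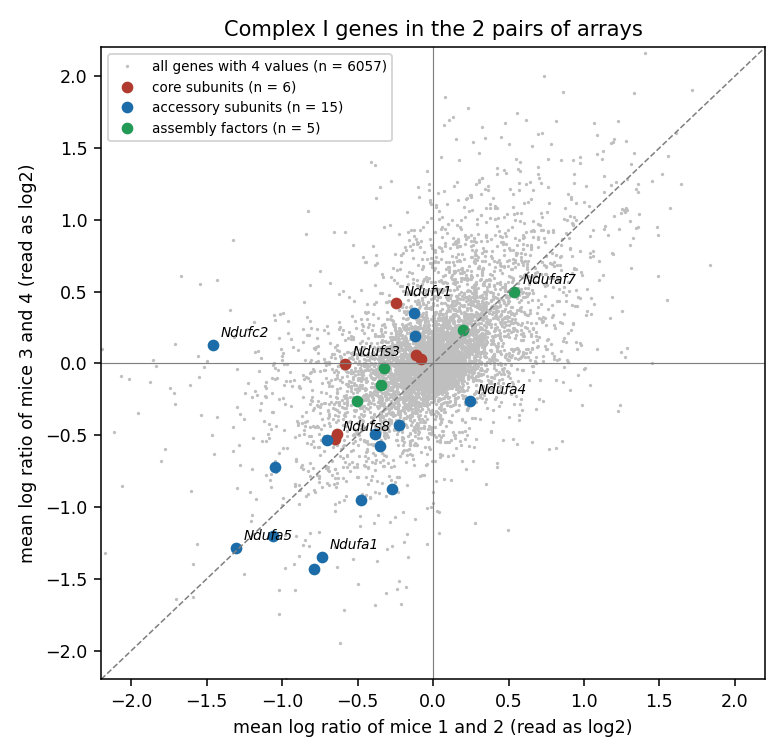
Mean log ratio of mice 1 and 2 (x axis) and of mice 3 and 4 (y axis), both read as log2, for the 26 complex I genes with 4 values, in colour by class, over all 6057 genes with 4 values in grey; the dashed line marks equal means, and genes beyond 2.2 on either axis are not drawn. Ndufa5 lies near the line at -1.31 and -1.28, whereas Ndufc2 lies at -1.46 for mice 1 and 2 and 0.13 for mice 3 and 4.

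Heart and skeletal muscle and brown fat hold many mitochondria and lie close to the lung, so their markers were set beside complex I. Of 34 muscle genes on the list, 22 were tested. Of these, 7 passed below 0 and 0 above, with 13 below and 0 above at an unadjusted limma p under 0.05. The 7 were Tnnc2, Myl1, Ldb3, Hrc, Cox7a1, Nppb and Cox8b. Tnnc2 and Myl1 had the lowest means of all genes tested, -4.90 (n = 3) and -2.91 (n = 4). The muscle medians were -2.51, -0.67, -0.47 and -0.88 in mice 1 to 4. Both mice 1 and 3 lay below both mice 2 and 4 in 11 of the 19 muscle genes with 4 values, and in 1 of 5 fat genes. Among the 11 were Myl1, Ldb3, Hrc, Cox7a1, Nppb and Cox8b, which all passed the test. Tnnc2, the only other muscle gene past the test, had no value in mouse 3. The split thus held for 57.9% of the 19 muscle genes, beside 46.2% of the 26 complex I genes with 4 values. The other muscle genes were ordered otherwise. Cox7a1, a muscle and brown fat subunit of cytochrome c oxidase, had -2.63, -0.65, -3.52 and -1.84 in mice 1 to 4, with mice 1 and 3 the lowest. Tnnt3, a troponin of fast skeletal muscle that did not pass, had -5.13, -4.52, 0.10 and -1.56, with mouse 3 the highest.

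Of 14 fat cell genes, 8 were tested and 4 passed below 0 and 0 above, with 5 below and 0 above at an unadjusted limma p under 0.05. The 4 were Cidea, Adipoq, Plin4 and Gpd1. Fat medians were -0.79, -0.06, -1.50 and -0.55 in mice 1 to 4. Cidea, which acts on lipid droplets in brown fat, had -2.11, -0.72, -4.44 and -2.84. Ucp1, the uncoupling protein that defines brown fat, had -2.06, -0.06, -3.43 and -2.03 and did not pass (limma adjusted p = 0.0612). In mouse 2, picked after the values were seen, Ucp1 was at -0.06, Cidea at -0.72, Gpd1 at -0.27 and Adipoq at -0.12. Plin4 had no value in mouse 2, and the fat median was -0.06. Muscle genes there ranged from -5.51 (Tnnc2) to 0.97 (Myh6), with 15 of 22 below 0 and a median of -0.67. Tnnt3 lay at -4.52 and Cox7a1 at -0.65. The accessory subunits had a median of -0.40 in that mouse, with genes from -1.03 (Ndufa5) to 0.33 (Ndufa4). In mouse 3 the fat and accessory medians were each the lowest of the 4 mice, at -1.50 and -0.80. The part of muscle and fat in the complex I values was not tested.

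**Figure D4:**
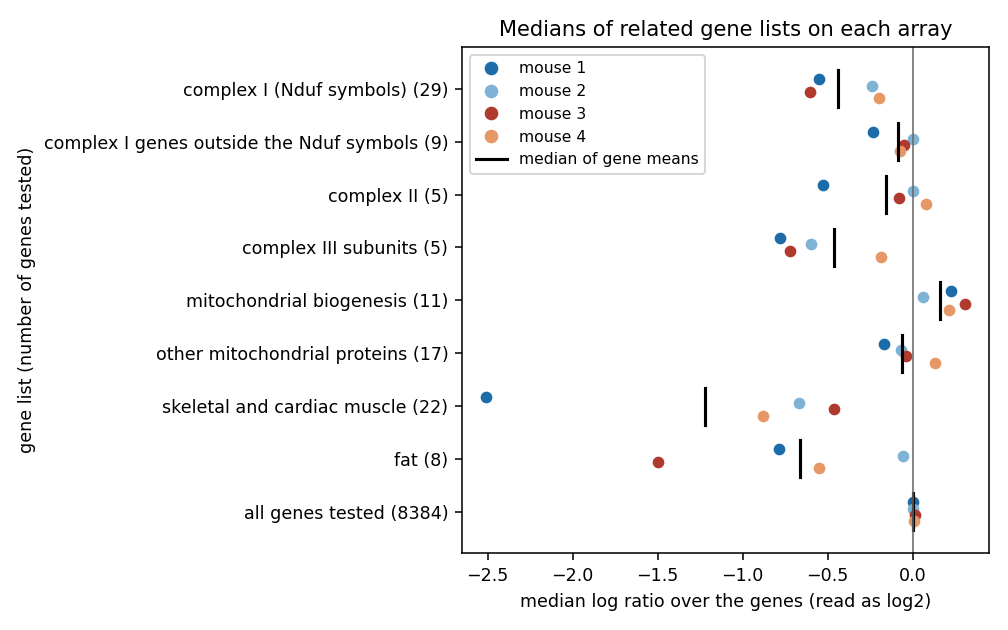
Median log ratio (x axis, read as log2) of complex I, of related mitochondrial gene lists and of muscle and fat markers on each array, with 1 point per mouse and a bar at the median of the gene means; the number of genes tested stands behind each name. The medians of complex I are -0.55, -0.24, -0.60 and -0.20 in mice 1 to 4, those of muscle reach -2.51 in mouse 1 and those of all genes are at 0.

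Other genes of complex I and of its neighbours were counted in the same test. Of 19 complex I genes with other symbols, mostly assembly factors, 9 were tested and 2 passed below 0 and 0 above, with 3 below and 2 above at an unadjusted limma p under 0.05. Tmem126a, an assembly factor of the membrane arm, had log ratios of -1.13, -1.44, -0.75 and -0.67 in mice 1 to 4, and Dmac1, which acts on the far end of that arm, -0.75, -0.72, -0.41 and -0.36. Both lay well below 0 in every mouse (means -0.996 ± 0.356 and -0.56 ± 0.20, SD, n = 4; limma adjusted p = 0.0157 and 0.0231). In contrast to these, Acad9 and Ecsit, which act together in assembly, had means of 0.41 and 0.19 and did not pass. The complex I subunits encoded by mitochondrial DNA are among the 19, but they had no probe under their symbols and were not tested.

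Complex II, which feeds electrons from succinate to ubiquinone, had 0 of 5 tested genes past limma on either side, with 1 below and 0 above at an unadjusted p under 0.05 and a median of -0.16. Complex III, which takes electrons from ubiquinone, had 1 of 5 below 0 and 0 above, with 3 below and 0 above at an unadjusted limma p under 0.05, and a median of -0.47. The gene past the test was Uqcrh, at -0.91, -1.24, -1.30 and -0.24 in mice 1 to 4. Of 17 other mitochondrial proteins, such as import pores, carriers and chaperones, 1 passed below 0 and 0 above, with 3 below and 3 above at an unadjusted limma p under 0.05, and the median was -0.07. Both counts below 0 are near the shares of all genes, 4.81% and 13.8%. The member below 0 was Cs, the citrate synthase gene, at -1.05, -1.17, -0.88 and -0.20 (mean -0.82 ± 0.43, SD, n = 4; limma adjusted p = 0.0351). These counts describe the lists, and no difference between them and complex I was tested.

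Genes of mitochondrial biogenesis, most of them regulators, had 8 means above 0 and 3 below, and 5 genes had values on both sides. Of 11 tested, 4 passed above 0 and 1 below, the same counts as at an unadjusted limma p under 0.05, beside 7.69% of all genes past the test above 0. The median was 0.16. Gabpa, the DNA-binding subunit of the transcription factor GABP, had log ratios of 1.32, 1.05, 1.54 and 1.53 in mice 1 to 4 (mean 1.36 ± 0.23, SD, n = 4; limma adjusted p = 0.00653). The transcription factor gene Yy1 had 1.10, 0.45, 0.70 and 0.69 (mean 0.74 ± 0.27, SD, n = 4; limma adjusted p = 0.0189). Nrf1, the nuclear respiratory factor, had 0.32, 0.22, 0.44 and 0.22 (limma adjusted p = 0.0489), and Polg, the polymerase of mitochondrial DNA, had a mean of 0.27 (limma adjusted p = 0.0439). These 4 genes were above 0 in every mouse. Esrra, a nuclear receptor that drives genes of respiration, lay on the other side, at -1.01, -0.93, -0.88 and -0.29 (mean -0.78 ± 0.33, SD, n = 4; limma adjusted p = 0.0239). Ppargc1a, which encodes a coactivator of Nrf1 and Esrra, was near 0, with values from -0.32 to 0.08. Gabpb1, the gene of another GABP subunit, had a mean of 0.06 and values from -0.11 to 0.23 (limma adjusted p = 0.664).

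Since GABP, NRF1 and YY1 are known to bind promoters of respiratory genes, their letters were searched in the promoter windows of complex I genes, from 250 bases before to 50 after the gene start on both strands. RefSeq windows of the build GRCm38.p6 were at hand for 35 of the 38 genes and for 26 of the 29 tested, all but Ndufs1, Ndufaf6 and Ndufs5-ps. The YY1 letters AANATGGC were found in 11 of the 35 genes (31.4%), beside 6.96% of all 27025 genes with a window. The NRF1 letters, GCGCA and GCGC with any base between them, were found in 7 (20%), beside 5.19% of all genes, and the GABP letters CCGGAAGT in 1 (2.86%), Ndufs3, beside 4.31%. Over the 32851 single windows the shares were 6.05%, 4.60% and 3.89%. A gene with more than 1 window counts once, and a match is a description and not a binding site.

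Of the 8 tested genes with the YY1 letters, 8 had means below 0 and 6 passed the test. Of the 18 tested genes without them, 14 had means below 0 and 4 passed below 0, so that means below 0 were common in complex I with or without the letters. In 5 of the 8, the letters stood on the gene's own strand between 23 and 39 bases after the start and read AAGATGGC each time, a word that is also known as an element of translation start in short leaders. Such a match, on the gene's strand within 50 bases after the start, was found in 6 of the 35 genes, beside 1.65% of all genes with a window. The 30 bases around each match are shown because they hold this shared word, with the matched letters in capitals:
Ndufc1 (chr3:51408915-51408944, minus strand): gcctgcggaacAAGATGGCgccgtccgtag
Ndufa3 (chr7:3617384-3617413, plus strand): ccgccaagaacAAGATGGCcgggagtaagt
Ndufs7 (chr10:80249462-80249491, plus strand): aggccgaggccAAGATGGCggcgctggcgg
Ndufa9 (chr6:126849097-126849126, minus strand): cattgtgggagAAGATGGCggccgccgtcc
Ndufb8 (chr19:44555393-44555422, minus strand): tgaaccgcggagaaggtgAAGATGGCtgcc
The letters began upstream in 3 genes, at base -18 from 1 start of Ndufa7, at base -165 in Ndufs8 and, on the other strand, at base -77 in Ndufaf3:
Ndufa7 (chr17:33824616-33824645, plus strand): ggagcggaaggAATATGGCgtccgctactc
Ndufs8 (chr19:3912921-3912950, minus strand): ctctctgatacAACATGGCagctccctaca
Ndufaf3 (chr9:108567495-108567524, minus strand): ccagacttggaGCCATTTTaaggagaaacc

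The median log ratio was -0.60 in the 8 complex I genes with the YY1 letters and -0.27 in the 18 without; the difference was not tested. Across all genes tested, the 579 with the letters anywhere in the window had a median of 0.02, and 34 (5.87%) passed below 0 and 50 above, against 305 (5.01%) below and 468 above of the 6092 genes without. For matches on the gene's strand within 50 bases after the start, 17 of 201 genes (8.46%) passed below 0 and 14 above, against 322 (4.98%) below and 504 above of the 6470 without. The median of the 201 was also 0.02. Of the 17 genes, 4 were complex I genes, and neither difference was tested. The NRF1 letters were found in 4 tested complex I genes, Ndufa5, Ndufa6, Ndufa8 and Ndufaf4, with means of -1.30, -0.24, 0.11 and -0.18, so that their members lay on both sides of 0. The match in Ndufa5, the lowest subunit gene, is shown with its letters in capitals:
Ndufa5 (chr6:24527697-24527726, minus strand): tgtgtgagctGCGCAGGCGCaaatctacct

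**Figure D5:**
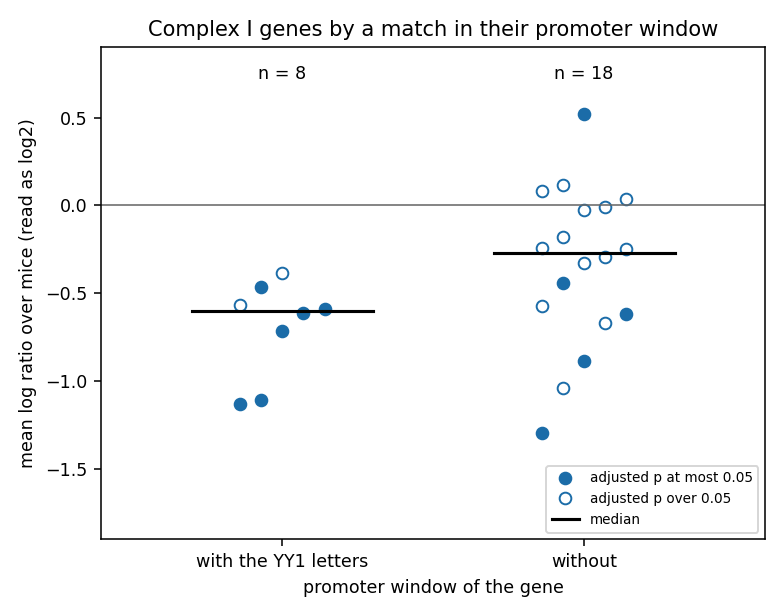
Mean log ratio over the mice (y axis, read as log2) of the 26 tested complex I genes with a promoter window, 8 with the YY1 letters and 18 without; each point is 1 gene, filled where the limma adjusted p was at most 0.05, and the bar is the median. The genes with the letters lie between -1.13 and -0.38, and those without between -1.30 and 0.52.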

How the data were processed

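The authors deposited 1 log ratio per spot and array, read here as log2 from the values (from -6.10 to 4.36); per the labels, the 2 channels hold a treated mouse and the control pool. The sources used here give neither dyes, scanner nor normalization, and no signals, so dim spots could not be judged. Of 17280 spots, 12136, 11373, 9427 and 10282 had a value in mice 1 to 4. The table held 0 other columns of per-sample values. Annotation of the platform, possibly outdated, gave 14722 spots 1 symbol, and all 38 complex I symbols matched RefSeq's gene table by gene ID.

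Arrays were centred on their medians, and probes of a symbol were averaged. limma 3.58.1 in R 4.3.3 (an intercept-only fit and eBayes) gave two-sided p-values of the mean against 0, adjusted after Benjamini and Hochberg across 8384 genes. Code was tested on simulated data. Array correlations over all probes were 0.728 for mice 1 and 2, 0.858 for mice 3 and 4 and 0.453 to 0.574 otherwise, and all arrays share the pool. Members, lists and tests were chosen with earlier results of these data known. Every tested Nduf gene is named, as is each gene past the test in the mitochondrial, muscle and fat lists. Muscle and fat genes given with single values serve as examples chosen after their values were seen. The split into matrix and membrane arm follows textbook structure. Alternatives were other centring, scaling, probe rules and filters, a random block, robust eBayes and leaving out each mouse. A comparison with protein length was not made.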

Additional observations from a re-analysis of the deposited data

Results flagged for a closer look

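Among 29 sets of 4 values, 26 genes and 3 class medians, 2 had a mouse far from the others by Dixon's test, which marks about 1 set in 20 by chance. Ndufaf3 had -0.05 in mouse 4 (-0.046), against -0.53, -0.48 and -0.48 in mice 1 to 3, and it passed without mouse 4 (limma adjusted p = 0.0497). Ndufs1 had -0.17 in mouse 1, against values from 0.01 to 0.05 in mice 2 to 4. Its 2 probes had -0.07 and -0.28 in mouse 1.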

How the results depend on the processing

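The members past limma below 0 numbered from 9 to 12 without centring, with scaled arrays, with the median of probes, with 1 probe per gene, with values on all 4 arrays required and with robust eBayes, against 11 as reported. They numbered 10 without Ndufs5-ps, and 10 without Ndufa3, Ndufc2 and Ndufs1, both chosen after seeing the data. With the 2 pairs of mice as a random block, 2 members passed below 0 and 0 above (14 and 2 at an unadjusted limma p under 0.05). Of all genes, 402 passed against 1048 as reported, and of the 402, 116 lay below 0 and 286 above. Without 1 mouse, 0 to 8 members passed below 0, beside 86 to 162 of all genes (1.03% to 1.93%). Above 0, 0 members passed in each case, beside 198 to 411 of all genes. At an unadjusted limma p under 0.05, 15 or 16 members lay below 0 and 1 or 2 above. On both sides together, 296 to 573 of all genes passed. Members tested without a mouse kept at least 2 values, and fewer arrays leave the test less to work with. Over 316 combinations of a gene and a setting, 267 kept their side of the threshold, 47 lost a call, 2 gained one (Ndufa1 and Ndufaf3) and 0 turned a called direction. Without 1 mouse, the medians were from -0.24 to -0.05 in core subunits, from -0.61 to -0.52 in accessory subunits and from -0.24 to -0.13 in assembly factors. No paired analysis was possible because there is 1 group of mice. With no signal values, the precision rests on 4 arrays alone.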

Other observations

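Complex I genes with fewer than 3 values were not tested. Ndufv3, an accessory subunit at the NADH end, had 0.03 in both mice 1 and 2, and the assembly factor gene Ndufaf5 had -0.21 and -0.02 in the same mice. Ndufa11 had -0.24 in mouse 1 and Ndufaf1 -0.14 in mouse 3.

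Markers of other lung cells were counted in the same limma test as a check on the mix of cells, in lists chosen with earlier results known. Of tested genes, 3 of 4 endothelial markers (Tek, Pecam1 and Ramp2), 1 of 5 of alveolar type II cells (Sftpa1), 1 of 4 of club cells (Cbr2) and 1 of 4 of macrophages (Mrc1) passed above 0 and 0 of each list below. At an unadjusted p under 0.05, 1 macrophage gene lay below 0 and 0 genes of the other 3 lists. For alveolar type I cells, 2 of 6 markers, Cav1 and Rtkn2, lay past the test above 0 and 1, Aqp5, below. Of 3 neutrophil markers, 2 passed below 0, S100a8 and S100a9, and 0 above, also at an unadjusted p under 0.05. A ratio gives no level, so these markers do not show how much of each cell type the samples held.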
